A study of Mus musculus with 16 samples.

Results

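Gonadal white adipose tissue (gWAT) of male Mboat7 flox/flox control mice and of mice that lack Mboat7 in adipocytes (Mboat7 ASKO) was compared on chow and on a high fat diet (HFD), and the measure described here is the genotype by diet interaction, that is, the diet response of Mboat7 ASKO mice minus the diet response of control mice. The members are the genes with at least 5 FPKM (a level scaled to exon length and to the fragments mapped in a library) in at least 4 of the 16 mice, which kept 7649 of the 19373 genes in the table. All 16 mice, 4 in each group, entered every value. The control mice on chow (Flox_Chow) and on HFD (Flox_HFD) carry the floxed alleles without Cre, and the knockout mice (FloxCre_Chow and FloxCre_HFD) carry the same alleles with Cre recombinase driven by the adiponectin promoter. All were on the C57Bl6/J background and were fed for 20 weeks with either Teklad TD:130104 chow or Research Diets D12492 HFD. Adiponectin Cre acts in adipocytes, so macrophages, vessels, mesothelium and the other cells of the fat pad keep Mboat7, and a whole-tissue library mixes both kinds of cell. The ages of the mice at tissue collection are not given in the labels. A value above 0 means that HFD minus chow was more positive in Mboat7 ASKO mice than in control mice, and a value below 0 means the opposite. All differences are on the log2(FPKM + 1) scale, which understates the change of genes with low FPKM values.

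MBOAT7 is a membrane-bound acyltransferase that joins arachidonic acid to lysophosphatidylinositol (LPI) and so makes the main arachidonate-containing phosphatidylinositol (PI) of many cells. During HFD feeding, gWAT of male C57BL/6 mice enlarges its adipocytes and gathers macrophages, many of which take up lipid, enlarge their lysosomes and express a typical set of genes such as Gpnmb, Itgax and Trem2. Lipogenic, branched-chain amino acid catabolic and several adipokine genes of adipocytes commonly fall on the same diet. An interaction asks whether the size of these changes depends on adipocyte Mboat7, and it is a different question from whether the genotypes differ on one diet.

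The libraries held the tissue's markers. Adipoq lay between 318 and 1871 FPKM, Fabp4 between 3303 and 22038 FPKM and Cidec between 227 and 1006 FPKM over the 16 mice, and the only epididymal and male tract marker in the table reached at most 0.736 FPKM. The table gives no counts. Low FPKM values of 1475 coding genes came in steps of 2.45 to 4.41 FPKM on a 1 kb transcript, taken here as 1 fragment. If FPKM was scaled to the fragments of each library alone, these steps correspond to 227000 to 409000 fragments per mouse. The group medians were then 317500, 303500, 295000 and 357000 fragments in Flox_Chow, FloxCre_Chow, Flox_HFD and FloxCre_HFD. The normalization setting of Cufflinks is not given, so these numbers may reflect the scale of the FPKM rather than the sequencing depth. A value of 0 was listed in at least 1 mouse for 14373 genes, ribosomal protein genes among them, and such a value is given here only as listed at 0. The 10 highest genes took between 32.6% and 55.2% of a mouse's FPKM sum. The first principal component (17% of the variance) separated the diets. On the second (12%), 3 libraries lay far from the rest, namely FloxCre_Chow replicate 0 at -66.6, FloxCre_Chow replicate 2 at 80.3 and Flox_HFD replicate 0 at 68.6, while the other 13 lay between -29.9 and 14.3. None of the 3 was a FloxCre_HFD library, and list medians and genes with an unadjusted p below 0.05 that move by over 1.5 times or turn sign without them are given both ways. For lists these are medians relative to the median of all genes.

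Mboat7 itself was low in every group. Its gene body lies at chr7:3677789-3693523 on the minus strand (GRCm38, which is mm10, GENCODE M21), with some exons that overlap exons of Tsen34. On chow, the 4 control mice had 2.42, 4.33, 0.902 and 4.99 FPKM, and the 4 Mboat7 ASKO mice had 0, 1.39, 0 and 2.89 FPKM. On HFD, the control mice had 0, 0, 2.15 and 1.61 FPKM and the Mboat7 ASKO mice 1.14, 0, 2.60 and 0 FPKM. The genotypes overlapped on both diets and no mouse reached the 5 FPKM limit. Values of this size rest on few fragments, and the gene did not separate the labels in these libraries. The interaction of Mboat7 was 1.10 (two-sided exact permutation test over 4900 relabellings of genotype within each diet, p = 0.237, n = 4 mice per group). The overlapping gene Tsen34, a subunit of the tRNA splicing endonuclease, had an interaction of 0.12 (exact permutation p = 0.859).

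No gene passed an adjusted p of 0.05 for the interaction (limma, Benjamini-Hochberg over 7649 genes, 0 called, 0.0%). The lowest adjusted p was 0.339, shared by Gm14703, Cdadc1, Rpl9-ps8 and Srpr. At an unadjusted p below 0.05, 515 genes (6.73%) were counted, of which 221 (2.89%) lay above 0 and 294 (3.84%) below 0. Over all tested genes the median interaction was 0.03, the quartiles were -0.60 and 0.64, and 51.1% of the genes lay above 0. These values set the limit of what 4 mice per group could show in these libraries. The median standard error of an interaction was 0.80 (quartiles 0.59 and 1.18), and the median width of its 95% interval was 3.40. For 137 genes (1.79%) the whole interval lay within 1 of zero, and for 2766 genes (36.2%) within 2. For most genes, therefore, a difference of 2-fold between the diet responses was neither shown nor bounded.

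Where the diet response was clear on average, it was set side by side in both genotypes. The estimate of this average does not use the interaction, because the 2 contrasts are orthogonal with 4 mice in every group. Both tests share the estimated spread of a gene, however, so a choice by the diet p favours genes with a small standard error. HFD raised 493 genes (6.45%) and lowered 432 genes (5.65%) on average over the genotypes (limma, adjusted p below 0.05). Among the 493, the median response was 1.71 in control and 1.75 in Mboat7 ASKO mice, 492 had the same direction in both, and the response was the larger one in Mboat7 ASKO mice for 258 genes and in control mice for 235. Among the 432 that fell, the medians were -1.45 and -1.39, 431 had the same direction, and the fall was larger in Mboat7 ASKO mice for 211 genes and in control mice for 221. An interaction p below 0.05 was found for 29 genes above 0 and 28 below 0 among the risers, and for 16 above and 24 below among those that fell, shares of 5.88%, 5.68%, 3.70% and 5.56% beside 2.89% and 3.84% over all genes. The median interactions of the risers and of the fallers were 0.05 and 0.04. Their median standard errors were 0.70 and 0.63, beside 0.80 over all tested genes, so the shares are not compared at equal precision. Across the 925 genes the responses of the 2 genotypes, which share no mice, had a Pearson r of 0.89, and across all 7649 genes 0.48. This r is over genes, which are not independent replicates, and the 925 were chosen for a clear average response.

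**Figure D1:**
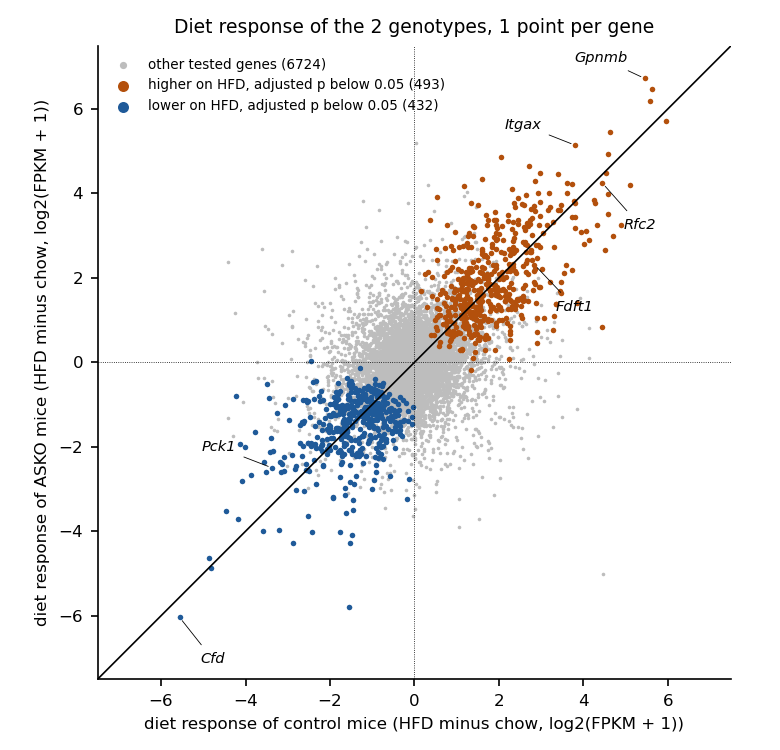
Diet response (HFD minus chow, log2(FPKM + 1)) of Mboat7 ASKO mice against that of control mice, 1 point per tested gene, 4 mice per group. The 493 genes higher and the 432 genes lower on HFD on average (adjusted p below 0.05) are coloured, the black line marks equal responses, and the coloured points scatter on both sides of it (258 risers above, 235 below).

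Counting each genotype alone gave lists that look more different than the interaction does. In control mice 415 genes (5.43%) passed the adjusted p for diet, in Mboat7 ASKO mice 482 (6.30%), and 223 were in both lists, which is 53.7% of the first and 46.3% of the second. Of the 192 genes that passed only in control mice, 173 had the same direction in Mboat7 ASKO mice and 62 had an interaction p below 0.05. Of the 259 that passed only in Mboat7 ASKO mice, 227 had the same direction in control mice and 90 had an interaction p below 0.05. These 62 and 90 genes were chosen through one of the responses that make up the interaction, so their counts are a description.

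The 5 genes with the lowest p of the average diet response in each direction had the same direction in both genotypes. Cfd encodes adipsin, a complement factor made by adipocytes, and had the lowest p of the genes that fell. On chow it stood at 864, 2595, 941 and 1468 FPKM in control mice and at 1022, 1129, 1680 and 1989 FPKM in Mboat7 ASKO mice. On HFD it stood at 30.8, 26.6, 19.2 and 33.9 FPKM in control mice and at 21.3, 32.6, 18.6 and 13.2 FPKM in Mboat7 ASKO mice. The fall was thus 5.56 and 6.04 on the log2 scale, every HFD mouse lay below every chow mouse, and the interaction was -0.47 ± 0.51 (SE, adjusted p = 0.886, 95% interval -1.55 to 0.61). Rfc2, a replication factor C subunit whose exons overlap those of the myeloid adaptor gene Lat2, rose by 4.45 in control and 4.24 in Mboat7 ASKO mice, with an interaction of -0.21 ± 0.43. Cept1 (choline and ethanolamine phosphotransferase), Sumf2 and Cul5, which overlap other genes by exon, had interactions of 0.36, -0.56 and 0.72 with intervals that include 0.

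Fdft1 and Pck1 were the diet genes with the lowest interaction p in this small group. Fdft1 encodes squalene synthase, the first enzyme committed to sterols, and its exons overlap those of the cathepsin gene Ctsb. It had 354, 273, 291 and 294 FPKM in control mice and 394, 332, 483 and 370 FPKM in Mboat7 ASKO mice on chow. On HFD they were 2231, 2301, 1959 and 2159 FPKM in control mice and 1971, 1823, 2016 and 1950 FPKM in Mboat7 ASKO mice. The rise was 2.84 and 2.31, so the interaction was -0.53 ± 0.24 (adjusted p = 0.722). Pck1, the enzyme that supplies glycerol for triglycerides in fat, fell by 3.37 in control mice and by 2.5 in Mboat7 ASKO mice. Its levels on HFD were 26.9, 44.5, 46.2 and 27.7 FPKM in control mice and 59.1, 52.0, 49.0 and 76.9 FPKM in Mboat7 ASKO mice, which did not overlap, but the interaction (0.88 ± 0.42, adjusted p = 0.741) was 0.23 without the 3 libraries far out on the second component.

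Most tested macrophage genes rose on HFD on average, and for most of the risers the estimated rise was larger in Mboat7 ASKO mice, with no single gene past the adjusted p. Of 16 tested pan-macrophage markers, 13 passed the test for the average diet response, all upward, and the rise was larger in Mboat7 ASKO mice for 12 of these 13. Of 20 genes typical of lipid-associated macrophages, 14 passed upward, and the rise was larger in Mboat7 ASKO mice for 13 of the 14. Over all tested members, risers or not, 12 of 16 and 14 of 20 lay above 0, beside 51.1% of all tested genes. Over all risers the rise was larger in Mboat7 ASKO mice for 52.3%. That share depended on the annotation class and the scaling. Among genes without exon overlap it was 61.5%, beside 11 of 12 and 8 of 9 in the lists, and with the sum without the 10 highest genes it was 66.3%, beside 13 of 13 and 13 of 14. Among the risers the exceptions, named after their values were seen, were Cd300a (-0.10) and the fatty acid binding protein gene Fabp5 (-0.57). Over all tested members, 4 of 16 and 6 of 20 lay below 0, and the lowest pan-macrophage member stood at -1.65. The genes of a list come from the same 16 libraries and move together, so these counts are a description and carry no test. Without the 3 libraries far out on the second component the counts were 10 of 13 and 12 of 14, and leaving out 1 mouse at a time they ran from 11 to 13 and from 12 to 13. The median interaction was 0.65 for the 13 risers and 0.61 for the 14, and 0.49 and 0.47 over all 16 and all 20 tested members, against 0.03 over all genes. Relative to all genes the latter 2 medians were 0.46 and 0.45, and 0.35 and 0.29 without the 3 libraries. For the risers alone the medians relative to all genes were 0.63 and 0.59. When only genes without exon overlap were used, with 12 and 9 risers left, they were 0.48 and 0.34 relative to all such genes. In bulk tissue, fewer cells of a type and less RNA per cell cannot be told apart, so neither the diet response nor its difference is a count of macrophages.

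Gpnmb is a membrane glycoprotein of lipid-loaded macrophages. On chow it was at 0, 0.826, 0 and 3.42 FPKM in control mice and at 0, 1.54, 0 and 0 FPKM in Mboat7 ASKO mice. On HFD the control mice had 55.8, 85.8, 76.5 and 76.7 FPKM and the Mboat7 ASKO mice 112, 132, 137 and 152 FPKM, so that the genotypes overlapped on chow and not on HFD. The interaction was 1.27 ± 0.64 (adjusted p = 0.744), and 0.81 without the 3 libraries. Because most chow values were listed at 0, much of this number depends on the pseudocount, and it was 1.94 with 0.1 in place of 1.

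Itgax encodes CD11c, an integrin of macrophages and dendritic cells. A single mouse of each genotype had any signal on chow, 0.723 FPKM in a control and 0.741 FPKM in a Mboat7 ASKO mouse. On HFD the control mice had 8.51, 26.3, 14 and 15.6 FPKM and the Mboat7 ASKO mice 39.2, 37.8, 34.6 and 47.4 FPKM. The groups did not overlap on HFD, and the interaction was 1.34 ± 0.58 (adjusted p = 0.691, 95% interval 0.12 to 2.56), or 0.89 without the 3 libraries. Atp6v0d2, a vacuolar ATPase subunit, and Mpeg1, the pore-forming protein perforin-2, had interactions of 0.61 ± 0.67 and 0.26 ± 0.41. Fcer1g, the shared signalling chain of Fc receptors, was listed at 0 in each of the 4 Mboat7 ASKO mice on chow, so no fold is given. Its values were 6.5, 22.3, 0 and 0 FPKM in control mice on chow, 31.8, 21.5, 6.48 and 8.14 FPKM in control mice on HFD and 27.7, 17.6, 22.6 and 55.5 FPKM in Mboat7 ASKO mice on HFD (interaction adjusted p = 0.676).

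Csf1r, the receptor for macrophage colony-stimulating factor, ran the other way. Its exons overlap those of Hmgxb3. It stood at 46.5, 39.2, 40.4 and 37.9 FPKM in control and 55.9, 41.4, 62.6 and 44.0 FPKM in Mboat7 ASKO mice on chow. On HFD it stood at 87.2, 43.2, 46.8 and 50.3 FPKM in control and 41.3, 29.2, 35.9 and 43.9 FPKM in Mboat7 ASKO mice. Flox_HFD replicate 0, one of the 3 libraries named above, was the highest of these, and the interaction of -0.84 ± 0.38 (adjusted p = 0.722) was -0.38 without the 3. Of 12 markers of resident macrophages, 7 lay above 0 with a median of 0.07, and only Gas6, the ligand of the TAM receptors that clear dying cells, had an unadjusted p below 0.05. Gas6, whose exons overlap those of Tmem255b, had 22.7, 19.3, 11.2 and 12.1 FPKM in control mice on chow and 5.63, 11.1, 2.32 and 1.81 FPKM in control mice on HFD. In Mboat7 ASKO mice it had 9.51, 6.36, 11.6 and 12.6 FPKM on chow and 12.7, 7.57, 12.4 and 20.6 FPKM on HFD, and the interaction was 2.01 ± 0.66 (adjusted p = 0.6). The median of the resident markers relative to all genes was 0.04 and turned to -0.42 without the 3 libraries.

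Lysosomal genes were less even. Of 26 tested, 17 rose on HFD on average and none fell, and 12 of these 17 rose more in Mboat7 ASKO mice (median interaction 0.27 over the 17 and 0.25 over the 26), beside 52.3% of all risers. Leaving out 1 mouse at a time moved the count from 9, without FloxCre_Chow replicate 0, to 14 and the median of the 17 from 0.17 to 0.43. Without the 3 libraries the count was 11, and the median of the 26 relative to all genes went from 0.22 to 0.12. Asah1, the acid ceramidase, had 48.9, 50.9, 50.3 and 49.6 FPKM in control and 38.5, 41.6, 17.6 and 55.9 FPKM in Mboat7 ASKO mice on chow. On HFD it had 45.1, 66.1, 75.8 and 63.6 FPKM in control and 78.9, 109, 108 and 66.6 FPKM in Mboat7 ASKO mice (interaction 1.0 ± 0.45, adjusted p = 0.718, and 0.42 without the 3 libraries). Ctsa, the carboxypeptidase that protects lysosomal galactosidase and neuraminidase, ran against the list and overlaps Pltp and Neurl2 by exon. It had 250, 309, 259 and 256 FPKM in control and 395, 344, 707 and 377 FPKM in Mboat7 ASKO mice on chow, and 2453, 1549, 1159 and 1239 FPKM in control and 1236, 1047, 970 and 1173 FPKM in Mboat7 ASKO mice on HFD. The genotypes did not overlap on chow, the rise was 2.51 in control and 1.33 in Mboat7 ASKO mice, and the interaction was -1.18 ± 0.37 (adjusted p = 0.6, -0.67 without the 3 libraries). Neu1, a lysosomal sialidase, stayed below 10 FPKM in every mouse and had an interaction of 2.30 ± 1.06 (adjusted p = 0.729). The 7 tested lectins and Fc receptors of myeloid cells had a median of 0.39, with 5 risers and no p below 0.05, and Clec7a, the beta-glucan receptor dectin-1, had an interaction of 0.05 ± 0.62.

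Cd36, the fatty acid transporter of adipocytes, vessels and macrophages, was also in the lipid-associated list. On chow it had 312, 384, 429 and 407 FPKM in control and 399, 335, 238 and 358 FPKM in Mboat7 ASKO mice. On HFD, values were 168, 337, 447 and 266 FPKM in control and 511, 475, 492 and 475 FPKM in Mboat7 ASKO mice, so that the genotypes separated on HFD. The responses were -0.41 and 0.58 and the interaction 0.98 ± 0.37 (adjusted p = 0.6, 0.64 without the 3 libraries). No other member of the list had an unadjusted p below 0.05 apart from Itgax, described above.

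**Figure D2:**
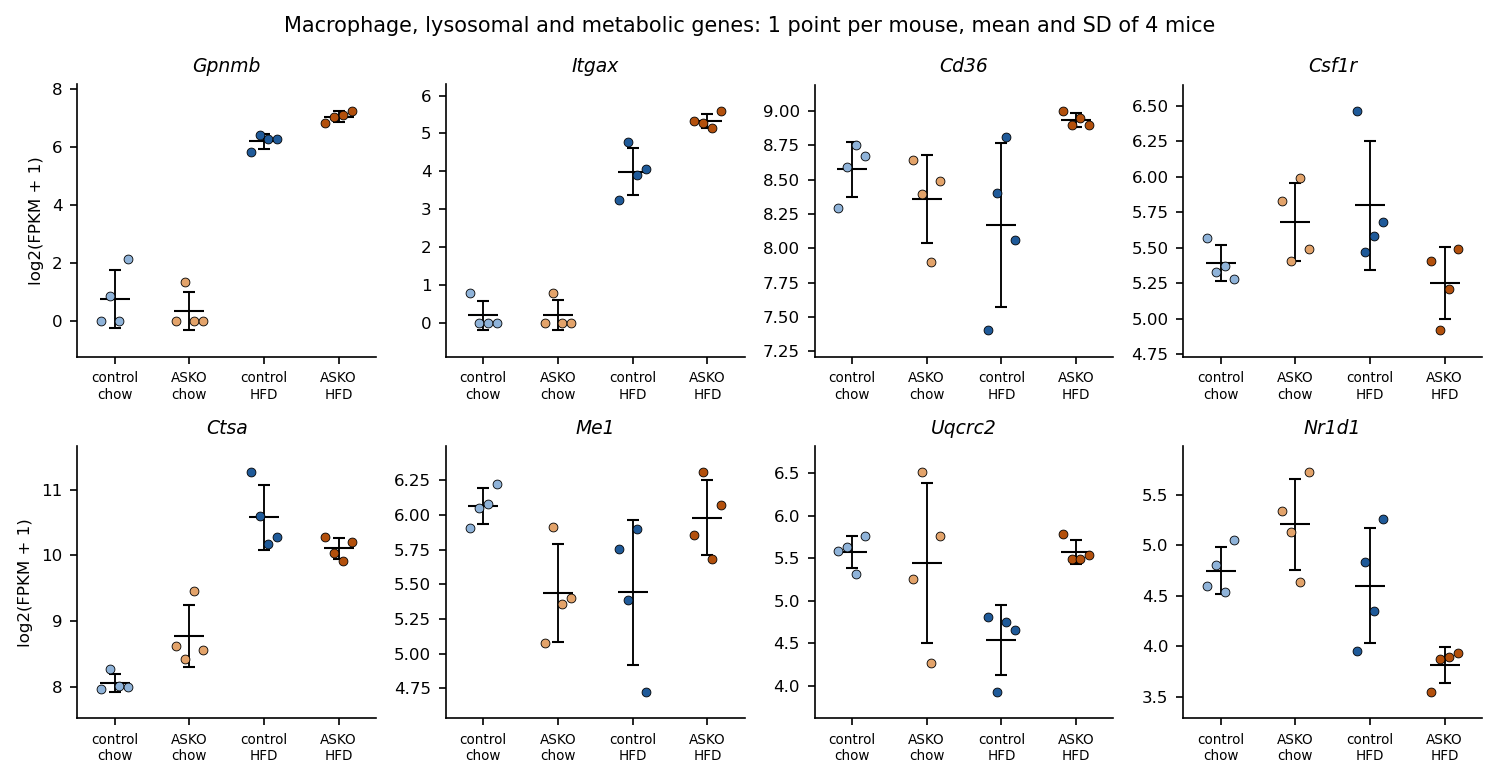
Level (log2(FPKM + 1)) of 8 genes in each of the 16 mice, by group; points are mice, horizontal ticks are means and bars are SD of 4 mice, and the y axes do not start at 0. Gpnmb and Itgax overlap between genotypes on chow and separate on HFD, Ctsa is higher in all Mboat7 ASKO mice on chow, and Nr1d1 is lower on HFD in Mboat7 ASKO mice; no interaction passed the adjusted p.

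Other immune genes made up 6 small lists, whose medians all lay below 0 while 4 of the lists held members on both sides. Of 14 tested chemokines and receptors, 7 lay above 0 (median -0.07, relative to all genes -0.09 and without the 3 libraries -0.27). Ccr2, the receptor of recruited monocytes, had an interaction of 2.01 ± 0.88 (adjusted p = 0.699), or 1.01 without the 3 libraries, with values between 0 and 9.76 FPKM. Ccl21a, a chemokine of lymphatic vessels, was listed at 0 in all control mice on chow, at 5.56, 10.3, 16.3 and 0 FPKM in Mboat7 ASKO mice on chow, at 0, 10.2, 8.34 and 10.9 FPKM in control mice on HFD and at 0, 0, 3.30 and 0 FPKM in Mboat7 ASKO mice on HFD (adjusted p = 0.6). Both MHC lists had medians below 0 (-0.35 for 6 class II and -0.26 for 11 class I genes). Relative to all genes these were -0.38 and -0.29, and without the 3 libraries they were -0.03 and -0.10. The abundant class II genes H2-Eb1 and H2-Aa had interactions of 0.55 ± 0.46 and 0.82 ± 0.57, above 0 although the median of their list was below it, and the class I gene H2-T23 had -2.51 ± 1.18 (adjusted p = 0.741) with 3 control mice on chow listed at 0. Among 10 interferon-induced genes the median was -0.11 (relative to all genes -0.14, turning to 0.03 without the 3 libraries), and the guanylate-binding protein gene Gbp2 had -1.20 ± 0.54 (adjusted p = 0.72). T and B cell markers could be tested for 3 genes only, all below 0 (median -1.08, no p below 0.05, Ighm at -1.08 ± 0.59 and Jchain at -1.59 ± 1.09), and so could granulocyte and mast cell markers (3 genes, median -0.66, no p below 0.05).

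Part of the adipocyte genes fell on HFD on average. Among 17 factors of adipocyte identity, 8 fell on average, 4 more in Mboat7 ASKO mice and 4 more in control mice, and the median interaction was -0.06, with members from -3.99 to 1.01 (relative to all genes -0.09, and -0.15 without the 3 libraries). Adipoq, the adiponectin gene, fell by 1.67 in control and 1.38 in Mboat7 ASKO mice (interaction 0.29 ± 0.35, 95% interval -0.46 to 1.04). Leptin (Lep), the hormone that reports fat stores, rose by 1.98 and 1.59 (interaction -0.39 ± 0.46, 95% interval -1.37 to 0.60). Cebpb, a transcription factor of early adipogenesis that also acts in macrophages and overlaps Tmem189 by exon, was the exception in size. It had 13.3, 39.3, 0 and 0 FPKM in control and 14.8, 8.40, 12.1 and 15 FPKM in Mboat7 ASKO mice on chow, and 69.1, 35.9, 21.4 and 48.4 FPKM in control and 4.20, 12.7, 2.84 and 7.73 FPKM in Mboat7 ASKO mice on HFD. The genotypes did not overlap on HFD, and the interaction was -3.99 ± 1.32 (adjusted p = 0.6), a size that rests partly on the 2 values listed at 0.

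Among the lipid pathways, fatty acid synthesis had the highest median. Of 16 fatty acid synthesis genes, 6 fell on average and 5 of these fell less in Mboat7 ASKO mice, beside 221 of all 432 fallers. The median interaction was 0.55, or 0.52 relative to all genes, and it was 0.07 relative to all genes without the 3 libraries. Me1, the malic enzyme that supplies NADPH, had 59.1, 65.1, 66.5 and 73.6 FPKM in control and 32.7, 59.4, 39.9 and 41.3 FPKM in Mboat7 ASKO mice on chow. On HFD it had 53.0, 40.8, 58.7 and 25.4 FPKM in control and 56.8, 78.2, 50.4 and 66.2 FPKM in Mboat7 ASKO mice. The responses were -0.62 and 0.54 and the interaction 1.16 ± 0.40 (adjusted p = 0.6), and the exons of Me1 overlap those of A330041J22Rik. Elovl5, an elongase of polyunsaturated fatty acids, had an interaction of 1.68 ± 0.71 (adjusted p = 0.676), with 16.2, 16.1, 13.3 and 15.5 FPKM in Mboat7 ASKO mice on HFD, above the 5.37, 2.03, 9.53 and 9.45 FPKM of control mice.

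Triglyceride synthesis (11 tested, median 0.18), sterol synthesis and uptake (14, median 0.11) and lipolysis and lipid droplet genes (15, median -0.13) each held 1 gene with an unadjusted p below 0.05, and each of those lay below 0. Relative to all genes the first 2 medians were 0.15 and 0.09, and 0.09 and 0.20 without the 3 libraries. The 3 genes were Fdft1, the acyltransferase gene Agpat3 (-1.59 ± 0.71, adjusted p = 0.715) and the lipid droplet coat gene Plin4 (-1.08 ± 0.48, adjusted p = 0.719), and all 3 overlap another gene by exon. The diet responses were -0.34 in control and -1.41 in Mboat7 ASKO mice for Plin4, and -0.73 and -1.69 for the overlapping Hdgfl2. Ctsb, which overlaps Fdft1, ran the other way from Fdft1, with an interaction of 0.61. Shared reads were not tested. Of 22 fatty acid oxidation genes 12 lay above 0 (median 0.07, relative to all genes 0.05 and without the 3 libraries -0.07). Hadha, a subunit of the mitochondrial trifunctional protein that overlaps Garem2 by exon, had 8.6, 10.9, 8.96 and 8.39 FPKM in control mice on HFD and 18.6, 14.4, 18.3 and 18.6 FPKM in Mboat7 ASKO mice on HFD. On chow it had 6.76, 12.1, 10.8 and 10 FPKM in control and 4.34, 11.5, 10.4 and 7.96 FPKM in Mboat7 ASKO mice, and the interaction was 1.09 ± 0.46 (adjusted p = 0.676). Hadh, an enzyme of the same pathway for shorter chains, had 0.91 ± 0.41 (adjusted p = 0.727).

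The list of phospholipid enzymes is broader than the acyltransferase family of MBOAT7 and also held other lipid enzymes, such as Acsl1. Of 16 tested phospholipid acyltransferases and PI enzymes, 13 lay above 0, beside 51.1% of all tested genes. Their median was 0.30 (0.27 relative to all genes and 0.15 without the 3 libraries), none had an unadjusted p below 0.05, and the members ran from -0.65 to 1.37. The most abundant were Acsl1, which activates fatty acids to acyl-CoA (0.25 ± 0.29, 95% interval -0.37 to 0.86), and Pla2g16, a phospholipase A2 of adipocytes (0.10 ± 0.44, 95% interval -0.83 to 1.03). The interval of Acsl1, whose exons overlap those of Gm45244, lay within 1 of zero. Of 12 tested insulin signalling and glucose uptake genes 9 lay above 0, beside the same 51.1%. Their median was 0.56, or 0.53 relative to all genes and 0.00 without the 3 libraries. Irs3, an insulin receptor substrate among its abundant members, had -0.24 ± 0.85.

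Mitochondrial genes were mixed. Of 56 respiratory chain subunits 34 lay above 0, beside 51.1% of all tested genes (median 0.20, 0.17 relative to all genes and -0.05 without the 3 libraries). Uqcrc2, a core protein of complex III whose exons overlap those of Pdzd9, had 27.1, 14.2, 25.8 and 24.1 FPKM in control mice on HFD and 54.2, 43.9, 43.8 and 45.5 FPKM in Mboat7 ASKO mice on HFD, which did not overlap. On chow it had 47.0, 48.6, 38.9 and 53.3 FPKM in control and 37.1, 90.1, 18.2 and 53.2 FPKM in Mboat7 ASKO mice. The interaction was 1.17 ± 0.54 (adjusted p = 0.729) and 0.57 without the 3 libraries. Of 20 branched-chain amino acid catabolism genes 11 fell on HFD on average, 8 of the 11 fell less in Mboat7 ASKO mice, against 221 of all 432 fallers, and no member had an interaction p below 0.05 (median 0.32, relative to all genes 0.29 and without the 3 libraries 0.15). Pccb, a subunit of propionyl-CoA carboxylase, and Oxct1, the ketone-activating transferase, were the abundant members, with -0.13 ± 0.42 and 0.50 ± 0.40.

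Cytosolic ribosomal protein genes (56 tested) had a median of -0.19, with 1 gene above and 2 below 0 at an unadjusted p below 0.05, and none of the 56 passed the test for the average diet response. Rps7 was listed at 0 in all 4 control mice on HFD and Rpl37 in all 4 control mice on chow, so no fold is given for either (adjusted p = 0.6 for both). Rpl5 had -0.79 ± 0.36 (adjusted p = 0.729), or -0.42 without the 3 libraries, and overlaps Fam69a and Snord21 by exon. The diet responses were 0.48 in control and -0.30 in Mboat7 ASKO mice for Rpl5, and 1.08 and 0.30 for Fam69a. Shared reads were not tested. Relative to all genes the median was -0.22, and it was 0.00 after quantile normalization and -0.04 without the 3 libraries.

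Markers of further cell types gave few genes with a low p. Of 6 tested mesothelial markers 4 lay above 0 (median 0.71, relative to all genes 0.68 and without the 3 libraries 0.18), and Gpm6a, a membrane glycoprotein, had 1.90 ± 0.76 (adjusted p = 0.636), with 12.2, 10, 24.1 and 12.9 FPKM in control and 15.6, 3.14, 7.68 and 8.40 FPKM in Mboat7 ASKO mice on chow, and 0.760, 0.835, 3.65 and 4.15 FPKM in control and 3.01, 3.49, 6.39 and 11.6 FPKM in Mboat7 ASKO mice on HFD. The summed FPKM of mesothelial markers ran from 31.3 to 121 over all mice and overlapped between all 4 groups. Collagens (8 tested) had a median of -0.42 without any p below 0.05 (relative to all genes -0.45, and -0.18 without the 3 libraries), and Col3a1 had 0.17 ± 0.57. Progenitor and fibroblast markers (18) had 0.25, with Gsn at -0.22 ± 0.30 and Dpt at 0.28 ± 0.36. Endothelial markers (10) had -0.27, with Gpihbp1 at -2.59 ± 1.25 (adjusted p = 0.741) and Cd300lg at -0.66 ± 0.65, and smooth muscle and pericyte markers (5) had -0.13, with Tagln at -0.72 ± 0.83 and Acta2 at -1.33 ± 0.77. Relative to all genes the endothelial median was -0.30 and turned to 0.19 without the 3 libraries, and the smooth muscle median went from -0.15 to 0.14.

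The smallest lists were hardly measured. Of 13 skeletal muscle markers 1 could be tested, Acta1 (-2.49 ± 1.21, adjusted p = 0.742), and of 12 thermogenic genes 1, Cox8b (-2.06 ± 2.42, and -0.46 without the 3 libraries). The 4 tested erythrocyte and blood markers had a median of -1.44, with the haemoglobin gene Hbb-bs at -1.10 ± 1.53 and the platelet factor gene Pf4 at 0.83 ± 1.74. Their summed FPKM ran from 7.39 to 54.3 (control) and from 34.3 to 185 (Mboat7 ASKO) on chow, and from 17.8 to 74.4 and from 20.2 to 36.2 on HFD. No p below 0.05 was found among 11 adipokine genes (median -0.23), 13 adipose expansion markers (median -0.28, with Sncg at -0.59 ± 0.41) or 3 cell cycle genes (median -0.56, with Ccna2 and Pcna both at -0.56). Relative to all genes, and then without the 3 libraries, the medians were -1.46 and -0.84 for the blood markers, -0.26 and 0.10 for the adipokines, -0.31 and -0.09 for the expansion markers and -0.58 and -0.05 for the cell cycle genes.

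Nr1d1, the circadian repressor REV-ERB alpha, was the clock gene with the lowest p, and its exons overlap those of Thra. The diet responses were -0.15 in control and -1.39 in Mboat7 ASKO mice for Nr1d1, and -0.79 and -2.0 for Thra. Whether the 2 genes shared reads was not tested. Nr1d1 had 23.2, 27.0, 22.2 and 32.2 FPKM in control and 39.3, 34.1, 23.8 and 51.7 FPKM in Mboat7 ASKO mice on chow. In the HFD groups it had 14.5, 27.5, 19.4 and 37.3 FPKM in control and 10.7, 13.7, 13.9 and 14.3 FPKM in Mboat7 ASKO mice, so all 4 of the latter lay below all 4 controls. The interaction was -1.24 ± 0.45 (adjusted p = 0.6) and -1.68 without the 3 libraries. The 6 tested clock genes had a median of 0.09 (relative to all genes 0.06, and 0.50 without the 3 libraries). Junb, an AP-1 subunit that overlaps Prdx2 by exon, had 9.55, 9.41, 6.06 and 3.67 FPKM in control and 1.97, 0, 1.6 and 0 FPKM in Mboat7 ASKO mice on HFD, with 0, 0, 0 and 4.61 FPKM in control and 2.46, 0, 3.13 and 9.12 FPKM in Mboat7 ASKO mice on chow (interaction -3.39 ± 1.10, adjusted p = 0.6). The median of the 16 immediate early and stress genes was 0.16 (relative to all genes 0.14, and 0.38 without the 3 libraries). The acute-phase genes Hp and C3, with 10 genes tested, had -0.76 ± 0.39 and -0.31 ± 0.38.

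Across the 36 lists that held a tested gene, 18 had a median above 0 and 18 below. The lists held 482 tested genes, of which 14 (2.90%) lay above 0 and 13 (2.70%) below 0 at an unadjusted p below 0.05, beside 2.89% and 3.84% over all tested genes. The lowest adjusted p among them was 0.6. In 18 lists no gene had an unadjusted p below 0.05. Scaling to the sum without the 10 highest genes moved the median of all genes from 0.03 to 0.29, and upper-quartile scaling to 0.11. Medians of lists are therefore read against the median of all genes. Without the 3 libraries far out on the second component, the median relative to all genes turned sign in 7 lists, came nearer to 0 by over 1.5 times in 16, moved away from 0 by over 1.5 times in 5 and stayed within 1.5 times in 8.

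**Figure D3:**
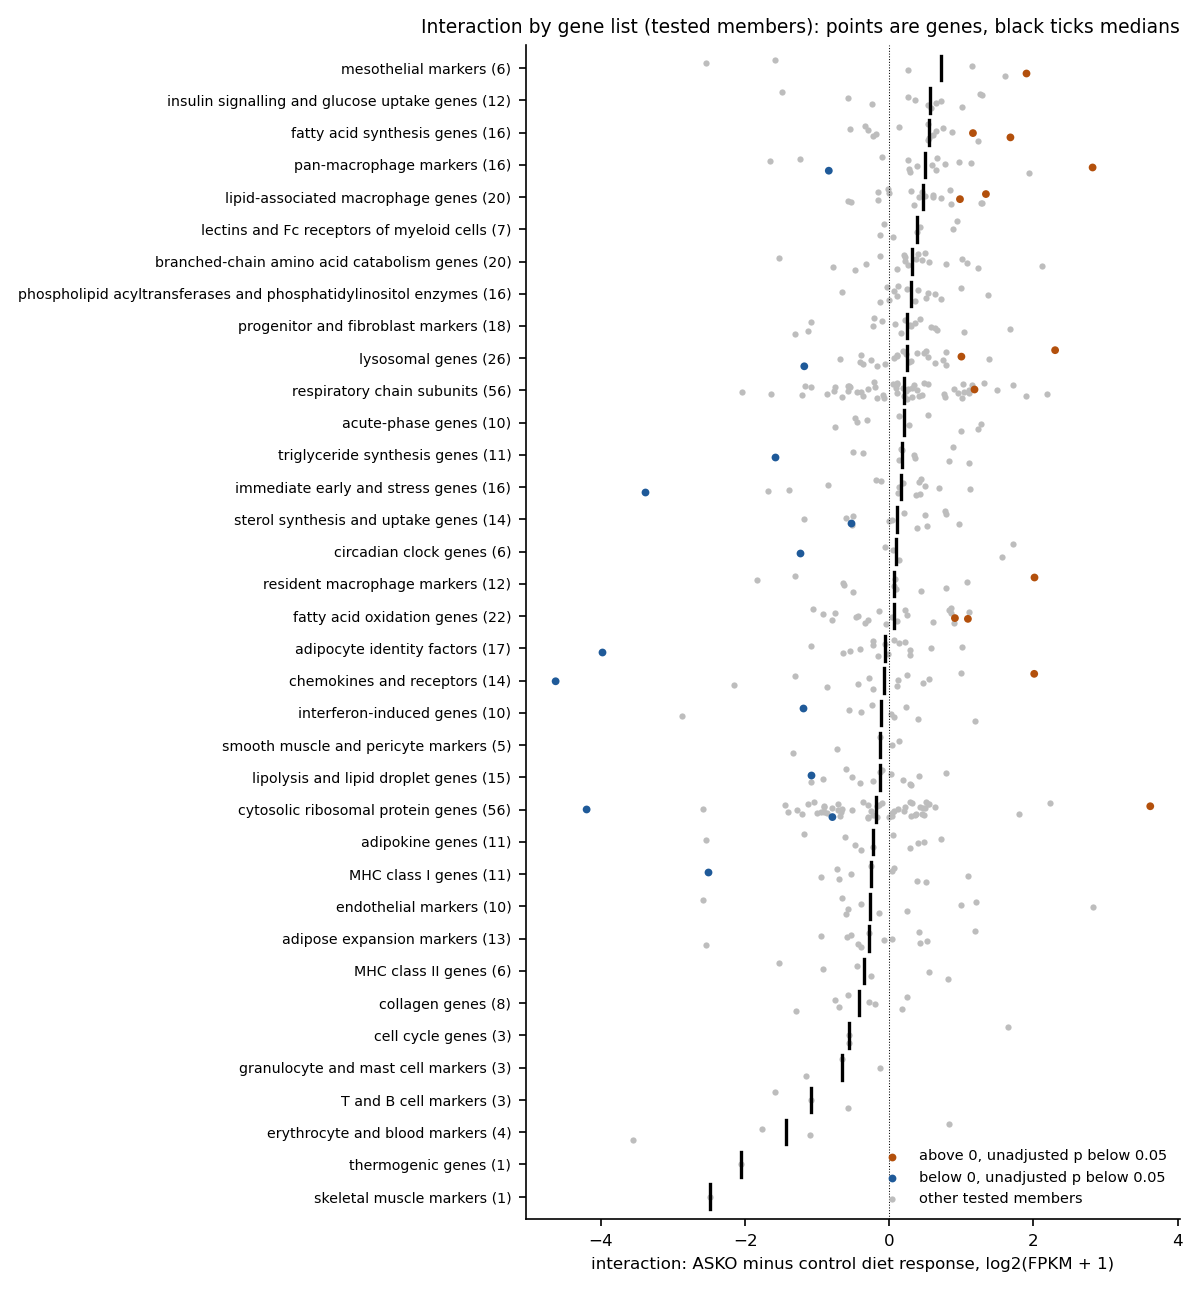
Interaction (diet response of Mboat7 ASKO minus control mice, log2(FPKM + 1)) of the tested members of 36 gene lists; each point is 1 gene, black ticks are list medians, coloured points have an unadjusted p below 0.05, and numbers in brackets are tested members. Most members of every larger list lie within 2 of zero on both sides, and the pan-macrophage, lipid-associated macrophage and fatty acid synthesis lists have medians between 0.47 and 0.55. The insulin signalling (0.56) and mesothelial (0.71) medians are higher. Without the 3 libraries far out on the second component, these 5 medians relative to all genes were 0.35, 0.29, 0.07, 0.00 and 0.18, in the order named.

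The genes with the lowest interaction p were not members of these lists. In each direction the 10 genes with the lowest p and an absolute interaction above 0.5 are described, with unadjusted p between 0.000106 and 0.00325 above 0 and between 0.000105 and 0.00132 below 0. All have an adjusted p of 0.339 or more. The sign of the genotype difference was opposite on chow and HFD for all 10 above 0 and for 9 of the 10 below 0, the exception being Mcee. Of the 515 genes at an unadjusted p below 0.05, 498 had opposite signs of the genotype difference on the 2 diets and 387 opposite signs of the diet response in the 2 genotypes, which the selection on the interaction favours. The genotype difference was the larger one on HFD for 283 of them and on chow for 232. Choosing genes for a low interaction p also favours groups that do not overlap and values that hold with a mouse left out. For the genes below, these are therefore a description and carry no test.

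Cdadc1 (chr14:59559388-59597959, minus strand, exons overlapping Cab39l), a member of the cytidine and deoxycytidylate deaminase family, had the lowest p above 0. It had 10.1, 9.47, 28.3 and 26.0 FPKM in control and 6.66, 2.15, 3.34 and 4.11 FPKM in Mboat7 ASKO mice on chow. On HFD it had 1.78, 3.73, 2.86 and 2.2 FPKM in control and 8.28, 9.12, 4.75 and 13.6 FPKM in Mboat7 ASKO mice. The genotypes were separate on both diets in opposite order, with responses of -2.29 and 0.97 and an interaction of 3.26 ± 0.64 (adjusted p = 0.339, 95% interval 1.91 to 4.61).

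Srpr (chr9:35200175-35247973, plus strand, exons overlapping Fam118b and Tirap) encodes the alpha subunit of the receptor that brings ribosomes to the endoplasmic reticulum. Its values on chow were 25, 16.4, 13.8 and 25.3 FPKM in control and 5.84, 5.54, 3.94 and 6.77 FPKM in Mboat7 ASKO mice. On HFD they were 10.1, 15.9, 10.4 and 11.9 FPKM in control and 16.3, 20.8, 12 and 23.1 FPKM in Mboat7 ASKO mice. Separation was complete on chow and not on HFD, and the interaction was 2.19 ± 0.45 (adjusted p = 0.339).

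Tmem30a (chr9:79768943-79793507, minus strand), the partner subunit of the flippases that keep phosphatidylserine on the inner leaflet of membranes, was the best measured of the 10 above 0 and overlaps no other gene by exon. It had 43.3, 44.2, 47.5 and 48.5 FPKM in control and 31.2, 22.6, 33.0 and 32.8 FPKM in Mboat7 ASKO mice on chow. Its HFD values were 33.8, 32.2, 39.3 and 25.7 FPKM in control and 55.5, 40.6, 58.5 and 40.7 FPKM in Mboat7 ASKO mice. The order of the genotypes turned between the diets without overlap on either, and the interaction was 1.17 ± 0.34 (adjusted p = 0.6). Leaving out 1 mouse at a time kept it between 1.05 and 1.27, a narrow range that the choice of the gene by its p favours.

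The processed pseudogene Gm8822 (chrX:81820384-81822730, minus strand) had 12.1, 11.3, 9.50 and 16.8 FPKM in control and 3.97, 3.31, 4.99 and 3.42 FPKM in Mboat7 ASKO mice on chow, and 13.7, 20.2, 32.4 and 10.5 FPKM in control and 42.6, 33.1, 25 and 24.1 FPKM in Mboat7 ASKO mice on HFD (interaction 2.18 ± 0.50, adjusted p = 0.589). A processed pseudogene resembles its parent gene, so reads of the 2 may not be told apart. Lrrc41, Ccdc71l and Rspry1 had interactions of 2.66 ± 0.71, 2.63 ± 0.73 and 2.24 ± 0.64, with no mouse above 10 FPKM, and Lrrc41 and Rspry1 overlap Rad54l and Fam192a by exon. The remaining 3 had a group listed at 0 in every mouse, so no fold is given. Hist1h3c, a histone H3 gene, had 14.7, 25.3, 15.3 and 19.1 FPKM in control mice on chow, 24.8 FPKM in FloxCre_HFD replicate 3 and 0 in the other 11 mice (adjusted p = 0.586). The pseudogenes Gm12430 and Gm21399 were listed at 0 in all control mice on HFD (adjusted p = 0.6 for both).

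Gm14703 (chrX:7651106-7657258, minus strand), an antisense gene whose exons overlap those of the synaptophysin gene Syp, had the lowest p below 0. It had 320, 238, 232 and 221 FPKM in control and 373, 270, 361 and 278 FPKM in Mboat7 ASKO mice on chow. On HFD it had 821, 525, 575 and 658 FPKM in control and 315, 234, 306 and 271 FPKM in Mboat7 ASKO mice. The diet responses were 1.34 in control and -0.18 in Mboat7 ASKO mice, the genotypes did not overlap on HFD, and the interaction was -1.52 ± 0.30 (adjusted p = 0.339). Gm42846 (chr5:34173887-34174887, plus strand), an antisense gene over Mxd4, had 818, 862, 790 and 931 FPKM in control and 1399, 956, 1898 and 920 FPKM in Mboat7 ASKO mice on chow. On HFD its levels were 3085, 1660, 1515 and 1644 FPKM in control and 1040, 982, 1035 and 804 FPKM in Mboat7 ASKO mice, and the interaction was -1.52 ± 0.36 (adjusted p = 0.6). Without the 3 libraries, to which the highest control and the highest chow knockout value belong, it was -0.88.

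Endog (chr2:30171493-30174069, plus strand, exons overlapping Spout1), the mitochondrial endonuclease G, had 141, 200, 138 and 222 FPKM in control and 232, 271, 250 and 185 FPKM in Mboat7 ASKO mice on chow. After HFD, values were 378, 268, 134 and 377 FPKM in control and 127, 89.6, 57.4 and 95.3 FPKM in Mboat7 ASKO mice, without overlap (interaction -2.01 ± 0.47, adjusted p = 0.589). Mybph (chr1:134193448-134201232, plus strand, exons overlapping Adora1), a myosin-binding protein gene, had 108, 139, 105 and 153 FPKM in control and 250, 219, 203 and 207 FPKM in Mboat7 ASKO mice on chow, without overlap. On HFD it had 345, 344, 423 and 233 FPKM in control and 300, 191, 209 and 255 FPKM in Mboat7 ASKO mice (interaction -1.29 ± 0.33, adjusted p = 0.6). The noncoding A930001C03Rik, which overlaps Rhod and Syt12 by exon, had diet responses of -0.46 in control and -2.03 in Mboat7 ASKO mice and an interaction of -1.57 ± 0.40.

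**Figure D4:**
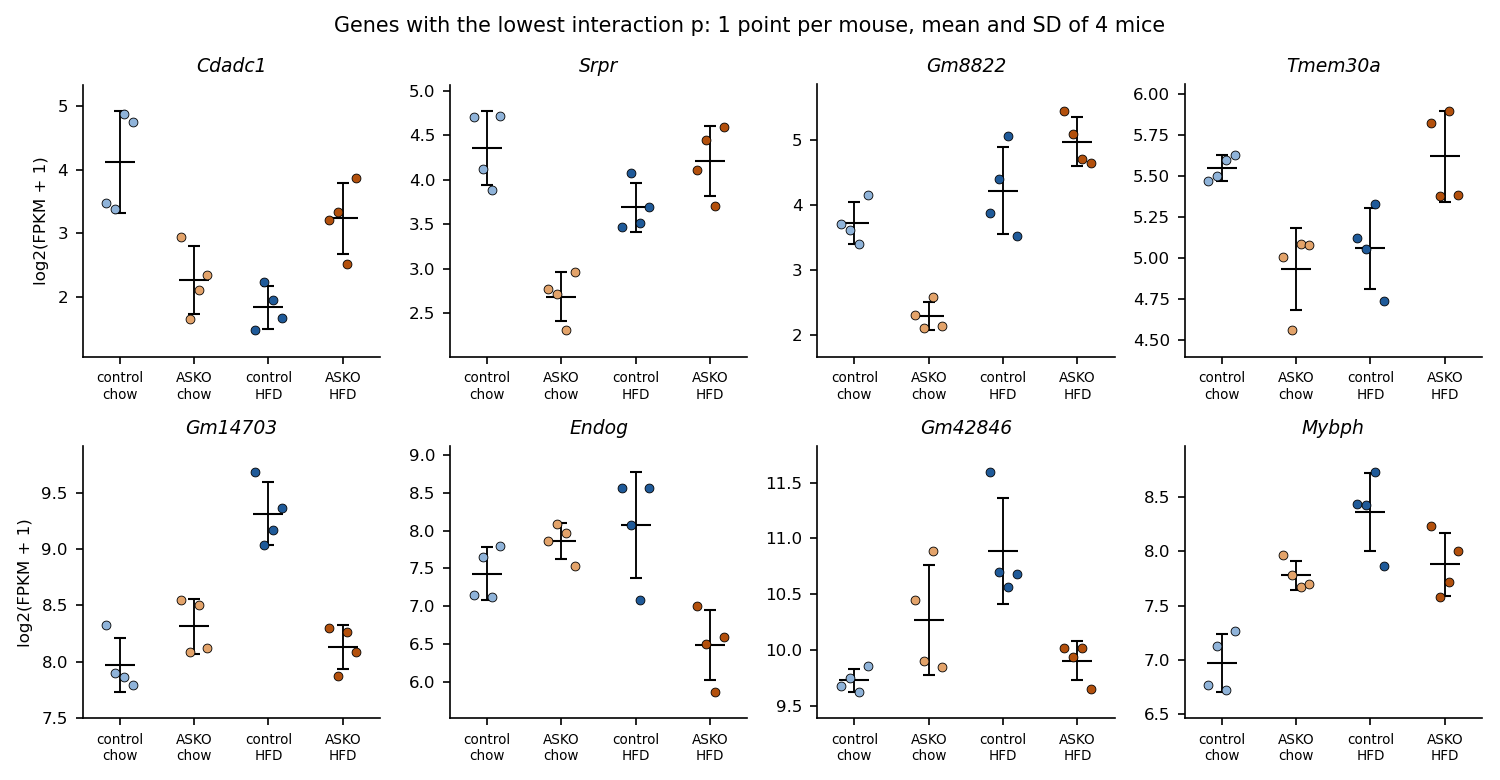
Level (log2(FPKM + 1)) of 8 of the genes with the lowest interaction p in each of the 16 mice, by group; points are mice, horizontal ticks are means, bars are SD of 4 mice, and the y axes do not start at 0. In the upper row the mean of the Mboat7 ASKO mice is lower on chow and higher on HFD, and in the lower row the order of the means is the opposite. Single mice of the genotypes are separate on both diets only for Cdadc1 and Tmem30a. All 8 genes have an adjusted p of 0.339 or more.

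The other genes below 0 were low. Rpl9-ps8, a ribosomal protein pseudogene, had 18.5, 6.63, 7.89 and 21.6 FPKM in Mboat7 ASKO mice on chow, 6.96 and 7.44 FPKM in 2 control mice on HFD and 0 in the other 10 mice (adjusted p = 0.339). Chchd6, a subunit of the complex that shapes mitochondrial cristae, had 3.28, 4.61, 14.6 and 25.9 FPKM in control mice on HFD and 3.19, 0, 0 and 0 FPKM in Mboat7 ASKO mice on HFD, with at most 9.34 FPKM on chow (adjusted p = 0.6). Mcee, methylmalonyl-CoA epimerase, had 0, 0, 3.99 and 0 FPKM in control mice on chow and at least 4.43 FPKM in every other mouse (adjusted p = 0.6). The pseudogenes Gm15746 and Gm7393 (adjusted p = 0.6 for both) were listed at 0 in 3 of 4 control mice on chow and in at least 3 of 4 Mboat7 ASKO mice on HFD, and Gm7393 overlaps Wdr27.

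The 2 directions differed in the kind of gene they held. Exons that overlap another annotated gene were present in 48.7% of all tested genes, in 77 of the 221 genes above 0 (34.8%) and in 217 of the 294 below 0 (73.8%). Antisense genes made up 8.47% of all tested genes, 7 of the 221 (3.17%) and 35 of the 294 (11.9%). The median level was 8.99 FPKM over all tested genes, 7.32 FPKM among those above 0 and 30.3 FPKM among those below. In the whole table, the genes listed at 0 numbered 8067 to 8778 per mouse in Flox_Chow and 8379 to 8673 in FloxCre_Chow. They numbered 7840 to 8273 in Flox_HFD and 7570 to 7845 in FloxCre_HFD. The part of these zeros in the interactions of low genes was not tested. Coding genes without exon overlap (3305) had a median interaction of 0.16, with 57.8% above 0, and coding genes with exon overlap (2613) had -0.11, with 44.4% above 0. Under quantile normalization these medians were 0.13 and -0.10, under upper-quartile scaling 0.24 and -0.02, with the sum without the 10 highest genes 0.42 and 0.17, and without the 3 libraries 0.08 and -0.10, so the order of the classes held while the sign of the second depended on the scaling. Tested alone, the 3924 genes without exon overlap had 144 genes above 0 and 79 below at an unadjusted p below 0.05, and none passed the adjusted p (lowest 0.643).

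The mean level of the antisense genes per mouse was 4.66, 4.26, 4.16 and 4.33 in control and 5.08, 4.33, 3.71 and 4.33 in Mboat7 ASKO mice on chow, and 3.55, 4.76, 4.50 and 4.56 in control and 4.32, 4.05, 4.69 and 4.36 in Mboat7 ASKO mice on HFD, in log2(FPKM + 1). The interaction of this mean was 0.00, and the median interaction of the antisense genes was -0.07 with all mice and -0.26 without the 3 libraries. The highest and the 2 lowest mice were the 3 libraries far out on the second component. The libraries were directional, but whether strand entered the counting is not stated, so reads of a gene and of a gene antisense to it may have been shared. Its part in the result was not tested.

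**Figure D5:**
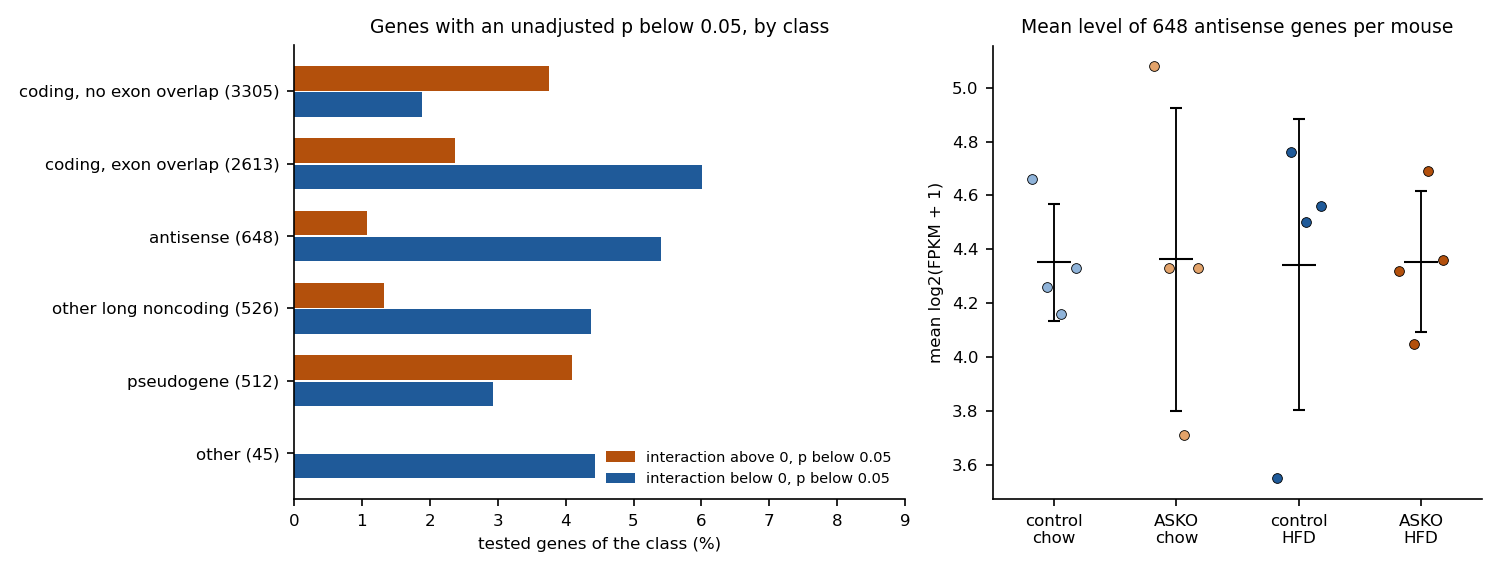
Left, share of the tested genes of each annotation class with an unadjusted interaction p below 0.05, above and below 0 (number of genes in brackets). Right, mean log2(FPKM + 1) of 648 antisense genes in each mouse, with the mean and SD of 4 mice; the y axis does not start at 0. Coding genes without exon overlap are the only large class with more genes above 0 (3.75%) than below (1.88%) beside the pseudogenes (4.10% and 2.93%), and 3 mice stand apart on the right.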

How the data were processed

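The gWAT RNA of 16 male mice was sequenced, 1 library per mouse, 4 mice per group. After trimming, the authors used STAR with GENCODE gene models for alignment to mm10, and Cufflinks gave the FPKM values. The deposited FPKM table was used as it stands. The GENCODE release, the normalization setting of Cufflinks and the use of strand are not given in the sources used here. Gene names, positions and exon overlap came from GENCODE M21, which held 99.6% of the identifiers, and 22 names that a spreadsheet had turned into dates were replaced.

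Genes that reached 5 FPKM in 4 or more mice were tested on log2(FPKM + 1), with limma 3.58.1 (R 4.3.3), a single fit of the 4 groups, the intensity trend and Benjamini-Hochberg adjustment over 7649 genes. Errors after ± are standard errors of limma. Mboat7 and Tsen34 were compared by exact permutation. Lists carry counts and medians only. The fit was tested on simulated data. Tables and plots used Python 3.11.15, pandas 2.3.3, numpy 2.4.6 and matplotlib 3.10.9.

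Members and lists were chosen with earlier results of these data known. Named were Mboat7, the 10 genes with the lowest p in each direction with an absolute interaction above 0.5, in each list up to 4 members with an unadjusted p below 0.05 or else the 2 most abundant, and the 5 genes with the lowest p of the average diet response in each direction. Of these, 1 gene is not reported here. Alternatives were filters of 1 and 10 FPKM and none, pseudocounts of 0.1 and 5, quantile normalization, 2 scalings, array weights, no trend, robust estimation, a replicate block and leaving out each mouse. Leaving out the 3 libraries far out on the second component, and testing only genes without exon overlap, were added after the data had been seen. The steps of low FPKM values limit the precision of low genes, and the FPKM values carry no counting interval.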

Additional observations from a re-analysis of the deposited data

Results flagged for a closer look

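Of 360 groups of 4 mice examined over the named genes and library measures, 39 held 1 mouse whose gap to the nearest of the others was, as a share of the range of the group, above Dixon's 95% limit, where chance gives about 18. Of these, 34 were values of 28 genes and the others library measures. Many are a single mouse with a low value beside 3 listed at 0, which the steps of low FPKM values favour. No value rested on a test of the difference between further groups, and no data outside the main measurement gave a signal.

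Among control mice on chow, the mouse apart from 3 others listed at 0 was found for Gm15746 in replicate 2 (3.15 FPKM), Gm7393 in replicate 2 (4.98 FPKM), Mcee in replicate 2 (3.99 FPKM), Itgax in replicate 0 (0.723 FPKM), H2-T23 in replicate 3 (19.8 FPKM), Cox8b in replicate 2 (15.6 FPKM) and Junb in replicate 3 (4.61 FPKM). Apart from 3 others with signal stood Ctsa in replicate 1 (309 FPKM, the others between 250 and 259) and Hbb-bs in replicate 2 (31.9 FPKM, the others between 7.07 and 7.7).

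Among Mboat7 ASKO mice on chow, the mouse apart from 3 others listed at 0 was found for Gpnmb in replicate 1 (1.54 FPKM), Atp6v0d2 in replicate 3 (3.17 FPKM) and Itgax in replicate 1 (0.741 FPKM). Apart from 3 others with signal stood Tmem30a in replicate 1 (22.6 FPKM, the others between 31.2 and 33) and Plin4 in replicate 0 (21 FPKM, the others between 12.6 and 13.8). The same held for Rps7 in replicate 2 (0 FPKM, the others between 4.03 and 5.21) and Ccna2 in replicate 2 (192 FPKM, the others between 64 and 70.8).

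Among control mice on HFD, the mouse apart from 3 others listed at 0 was found for Cox8b in replicate 0 (65.9 FPKM). Apart from 3 others with signal stood Gm42846 in replicate 0 (3085 FPKM, the others between 1515 and 1660) and Ccl21a in replicate 0 (0 FPKM, the others between 8.34 and 10.9). The same held for Sncg in replicate 0 (914 FPKM, the others between 752 and 767).

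Among Mboat7 ASKO mice on HFD, the mouse apart from 3 others listed at 0 was found for Hist1h3c in replicate 3 (24.8 FPKM), Gm15746 in replicate 2 (2.99 FPKM), Chchd6 in replicate 0 (3.19 FPKM), Ccl21a in replicate 2 (3.3 FPKM), Rpl37 in replicate 1 (16.6 FPKM), Acta1 in replicate 0 (2.1 FPKM) and Cox8b in replicate 2 (27.7 FPKM). Apart from 3 others with signal stood Ighm in replicate 1 (8.98 FPKM, the others between 29.5 and 33.6) and Hadha in replicate 1 (14.4 FPKM, the others between 18.3 and 18.6). The same held for Gpihbp1 in replicate 0 (0 FPKM, the others between 18.7 and 21.8) and Hbb-bs in replicate 0 (28.2 FPKM, the others between 5.57 and 7.02). The same held for Nr1d1 in replicate 0 (10.7 FPKM, the others between 13.7 and 14.3) and Hp in replicate 1 (610 FPKM, the others between 286 and 305). The same held for Pcna in replicate 3 (5.91 FPKM, the others between 20 and 21.7).

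Among library measures, control replicate 1 on chow had the highest FPKM sum of its group (772000, the others between 612000 and 636000) and the highest share of the 10 top genes (41.9%, the others between 35.4% and 35.8%). Mboat7 ASKO replicate 3 on HFD had 54.2% in the 10 top genes (the others between 38.7% and 39.2%). Control replicate 0 on chow lay at -29.9 on the second component (the others between -1.8 and 2.6), and control replicate 0 on HFD had an estimated 409000 fragments (the others between 288000 and 295000). Their part in the interactions was not tested beyond leaving out each mouse.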

How the results depend on the processing

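Leaving out FloxCre_Chow replicate 2 gave the only call in 30 alternatives, 1 gene, so the count ran from 0 to 1 with each mouse left out and was 0 in the others. That gene was the pseudogene Rps25-ps1 (interaction 5.85, adjusted p = 0.00737), which had 213 FPKM in the mouse left out and was listed at 0 in the other 3 of its group; with all mice its adjusted p was 0.729. Without the 3 libraries far out on the second component the lowest adjusted p was 0.0516, and over the other alternatives it ran from 0.187 upward. The count at an unadjusted p below 0.05 was 828 with a filter of 1 FPKM, 941 without a filter and 223 among genes without exon overlap, and 440 to 632 with each mouse left out. The count of average diet responses was 491 among genes without exon overlap and 789 to 936 with each mouse left out. The split of genes above and below 0, 221 and 294, became 458 and 146 with the sum without the 10 highest genes, 291 and 231 with upper-quartile scaling, 250 and 236 with quantile normalization and 144 and 79 without exon overlap. The interaction of Mboat7 was 2.53 with a pseudocount of 0.1 (exact permutation p = 0.272) and 0.73 to 1.48 with each mouse left out. None of the 88 named tested genes passed the adjusted p in 2594 alternatives, and the sign of the interaction turned under at least 1 alternative for 14 of these genes, 10 of which turned with 1 mouse left out. Of 1079 list medians under alternatives, 43 were counted as moved, but this count does not show that the others were stable. Leaving out the 3 libraries alone turned the sign of the median relative to all genes in 7 lists. It left 8 lists within 1.5 times.

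Replicate numbers run from 0 to 3 in every group and mark different animals. The deviations of the 24 same-numbered pairs correlated between -0.24 and 0.18, above 0.1 for 2 pairs, and 7 of 16 mice correlated best with their own number. No chance share was set beside that count, so it does not decide whether the numbers are a pairing. The main fit did not use the numbers. With the replicate block, 216 genes lay above and 317 below 0 at an unadjusted p below 0.05 (533 in all), 0 passed the adjusted p (lowest 0.273), and 884 average diet responses passed. The steps of low FPKM values limit low genes most, since 1 step moves a 1 kb transcript by several FPKM.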
